A study of Rattus norvegicus with 12 samples.

Results

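*Serpinf1*, *Fn3k*, *Ddx5*, *Cwc25* and *Sco1* are 5 genes of rat chromosome 10 whose array signal set the Ept9 congenic line apart from 3 other congenic lines. Ept9 carries alleles of the Copenhagen (COP) rat strain on chromosome 10. In the anterior pituitary gland of Ept9 rats the mean signals of *Serpinf1* and *Fn3k* were 4.99-fold and 2.54-fold higher. Those of *Cwc25*, *Sco1* and 1 of the 2 probe sets of *Ddx5* were lower. The other probe set of *Ddx5* was 1.15-fold higher in Ept9 and showed no loss of signal. The genes were chosen because earlier results of these same arrays had placed them among those that differ most in Ept9, so their difference between Ept9 and the other lines is given as a description, with no test. They are 5 of 14218 genes that are the only gene of a probe set, and every probe set annotated to exactly 1 of them was used. That gave 6 probe sets, 2 for *Ddx5* and 1 for each of the others, and all 6 passed the filter on dim signals.

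The rats were male, carried the ACI genetic background and received a subcutaneous implant with 5 mg of diethylstilbestrol (DES), a synthetic estrogen, from 9 to 21 weeks of age, with an injection of BrdU (50 mg/kg) 4 hours before the glands were taken. The lines differ in the segment of COP genome that replaces ACI, which lies on chromosome 10 in Ept9, on chromosome 6 in Ept1 and on chromosome 3 in both Ept2 and Ept6. There were 3 arrays for each line, none of an untreated rat and none of an ACI rat, so the comparison for Ept9 was the average of the 3 other lines, which carry ACI alleles on chromosome 10 by design. The segments are known here only from the labels, which give the chromosome and neither end. The titles give 3 replicates for a line, whereas the notes on single samples count fewer independent replicates than animals, so the spread between arrays may be in part technical.

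Estrogens make the lactotroph, the prolactin cell of the anterior pituitary, divide and enlarge the gland in susceptible rat strains, and the Ept loci were named for their effect on this growth. A congenic line carries every gene of the introgressed segment in the donor form, so that a gene within it can differ in expression whether or not it acts on growth. The arrays read a transcript through short probes whose signals are combined into 1 value for a probe set. A base that differs between strains beneath a probe can change that value with no change of the transcript. For a gene with 1 probe set these causes cannot be told apart in these files, which hold no values of single probes and no COP sequence.

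The members have unrelated functions. *Serpinf1* encodes pigment epithelium-derived factor (PEDF), a secreted serpin without protease inhibitor activity that restrains the growth of blood vessels. *Fn3k* encodes fructosamine 3-kinase, which phosphorylates sugars attached to proteins and so starts their removal. *Ddx5* encodes p68, a DEAD-box RNA helicase that takes part in splicing and microRNA processing and is a coactivator of the estrogen receptor alpha. *Cwc25* encodes a splicing factor that, in yeast, joins the spliceosome for the first catalytic step. *Sco1* encodes a copper chaperone of the inner mitochondrial membrane that delivers copper to cytochrome c oxidase.

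The promoters of the 3 members whose readings differ most in kind are shown here, because *Serpinf1* and *Fn3k* were higher in Ept9 whereas *Ddx5* has 1 promoter for 2 probe sets that moved apart. Each runs 5' to 3' from 250 bases before to 50 bases after the annotated start in the RefSeq annotation of GRCr8, which is the genome of the BN strain and neither ACI nor COP. All 5 members were matched to a promoter there. Capitals mark the estrogen response element half-site GGTCA and the GC box GGGCGG, each on either strand. They lie at chr10:60760849-60761148 on the minus strand for *Serpinf1*, chr10:107198702-107199001 on the plus strand for *Fn3k* and chr10:92231879-92232178 on the minus strand for *Ddx5*.
Serpinf1: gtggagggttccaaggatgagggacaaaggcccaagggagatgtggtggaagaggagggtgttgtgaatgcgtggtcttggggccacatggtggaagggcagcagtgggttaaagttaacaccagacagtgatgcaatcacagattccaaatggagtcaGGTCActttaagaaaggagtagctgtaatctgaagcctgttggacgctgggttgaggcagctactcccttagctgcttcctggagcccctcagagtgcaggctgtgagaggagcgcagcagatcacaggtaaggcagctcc
Fn3k: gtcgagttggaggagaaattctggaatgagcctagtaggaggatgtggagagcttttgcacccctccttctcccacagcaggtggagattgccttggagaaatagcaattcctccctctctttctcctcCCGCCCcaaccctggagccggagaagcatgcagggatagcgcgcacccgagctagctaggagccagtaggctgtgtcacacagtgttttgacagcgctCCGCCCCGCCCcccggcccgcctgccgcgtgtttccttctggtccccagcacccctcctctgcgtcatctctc
Ddx5: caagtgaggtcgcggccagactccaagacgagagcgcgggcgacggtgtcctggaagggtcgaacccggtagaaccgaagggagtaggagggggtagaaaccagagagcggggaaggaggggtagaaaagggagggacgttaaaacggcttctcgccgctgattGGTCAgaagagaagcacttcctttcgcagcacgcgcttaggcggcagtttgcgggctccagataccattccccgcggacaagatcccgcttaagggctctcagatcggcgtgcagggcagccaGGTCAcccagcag

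The half-site was found in 2 of the 5 member promoters, 1 time in *Serpinf1* and 2 times in *Ddx5*, and 40.2% of 27457 rat promoters of this length hold it. The full palindromic element, 2 half-sites facing each other across 3 bases, was in none of the 5 and is in 0.0255% of all. The GC box was in 3 of 5 (*Fn3k* with 3 matches, *Cwc25* with 2 and *Sco1* with 1), against 34.9% of all promoters. A CCAAT box (CCAAT, either strand) was in 1 of 5, in *Ddx5*, where it overlaps a half-site, against 37.7%. Neither the TATA box TATAAA (14.3% of all) nor the full palindromic cAMP response element (1.91%) was in any of the 5, on either strand. *Ddx5* held 25 CpG dinucleotides and *Serpinf1* held 3, with a median of 7 over all promoters. These letters describe the reference strain, and their state in the COP segment was not tested.

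Signals are linear, and the authors had scaled each array to the same trimmed mean of 500.2. Log2 differences are on the scale log2(signal + 16), which understates the change of dim probe sets, and are given with their standard error from the limma fit over 18607 probe sets that passed the filter. Correlations between arrays ran from 0.958 to 0.970. Of 8 markers of anterior pituitary hormone cells 7 passed the filter, among them *Prl* (44524 ± 1569 in Ept9, SD, n = 3) and *Gh1* (32970 ± 1278 in Ept9, SD, n = 3), whereas *Pomc*, the corticotroph hormone gene, was below the filter on average and was not tested. *Pomc* was 13.1 to 23.2 in Ept9, against 93.8 to 151.9 in Ept1, 10.6 to 90.7 in Ept2 and 11.5 to 120.6 in Ept6, so the Ept9 arrays were all dim and overlapped single arrays of Ept2 and Ept6. The posterior lobe hormone genes *Avp* and *Oxt* and the liver genes *Alb* and *Apoa1* were all below the filter. Of the other posterior lobe and nerve markers *Gfap* was below it too, but *Mbp* passed. *Mbp* was 693.5 to 839 in Ept9 and 739 to 1065 in the other lines. The intermediate lobe marker *Pcsk2* also passed, at 1361 to 1743 in Ept9 and 876 to 1856.5 in the others. The part of these lobes in the samples was not tested. The log2 gap of the Gapdh controls at the 3' and the 5' end, a sign of RNA integrity, ran from 0.17 to 0.28 in Ept9 and from 0.088 to 0.42 in the other lines, so that the groups overlapped. Over all probe sets tested, 0.683% passed the limma test in Ept9 (0.43% higher and 0.253% lower), and 2.69% had all 3 Ept9 arrays above or all below the 9 others (1.3% above and 1.4% below). At an unadjusted p under 0.05 the limma test gave 2050 of 18607 probe sets in Ept9.

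*Serpinf1* (1388569_at) was the member with the largest increase. Its signal was 10917, 10808 and 10454 on the 3 Ept9 arrays. It was 1432, 1601 and 1193 in Ept1, 1047, 2194 and 1769 in Ept2, and 3550, 3417 and 3130 in Ept6. The lowest Ept9 array was 2.94 times as bright as the brightest of the 9 others, an array of Ept6, so the groups did not overlap. The mean was 10726 ± 242 in Ept9, against 1408 ± 205 in Ept1, 1670 ± 580 in Ept2 and 3366 ± 215 in Ept6 (SD, n = 3 each). The log2 difference between Ept9 and the mean of the other lines was 2.44 ± 0.18 (SE), a 4.99-fold ratio of the mean signals. Against single lines it was 2.92 over Ept1, 2.74 over Ept2 and 1.67 over Ept6.

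The choice of *Serpinf1* did not use the order of the other lines among themselves. All 3 Ept6 arrays lay above all 6 arrays of Ept1 and Ept2, with a log2 difference of 1.26 over Ept1 and 1.07 over Ept2. The same 3 arrays had a smaller Gapdh gap than all 6 of these, and the part of RNA integrity in this order was not tested. Ept2 did not differ from Ept1 beyond the spread between arrays, with a log2 difference of 0.19 and arrays that overlap. The limma F test among Ept1, Ept2 and Ept6 gave an adjusted p of 0.0571, just above the threshold of 0.05. The exact permutation test over the 280 partitions of the 9 arrays gave p = 0.0214, where the smallest possible p is 0.00357 and 6 probe sets were tested. The adjusted p was under the threshold in 6 of 21 alternatives and above it in 15. It was 0.0075 without Ept2 replicate 1 and 0.0257 without Ept2 replicate 2, but 0.2 without Ept6 replicate 1, 0.146 with no filter on dim signals and 0.103 with the replicate number as a block. In all, 0.484% of the probe sets tested passed this F test (12.9% at an unadjusted p under 0.05). No member probe set did, and for the 5 other than *Serpinf1* the adjusted p ran from 0.764 to 1.

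Stroma is a source of PEDF in many tissues, so its markers stand beside *Serpinf1*. Of 7 stromal markers 5 passed the filter and none passed the limma test in Ept9 (2 at an unadjusted p under 0.05). Their differences ran from -0.42 for *Lum* to 0.70 for *Col1a2*, the collagen gene, with a median of 0.43 against -0.01 over all probe sets tested. *Col1a2* was 2979 to 3258 in Ept9 and 1089 to 2718 in the other lines, with no overlap. The summed signal of the 7 markers was 3914 to 4129 in Ept9, 2232 to 3016 in Ept1, 1852 to 3979 in Ept2 and 2429 to 3555 in Ept6. The Ept9 arrays thus lay at the top of the range, with 1 Ept2 array among them, and the Ept6 arrays, which were high for *Serpinf1*, overlapped those of Ept1 and Ept2. The part of stroma in the *Serpinf1* signal was not tested, and in whole glands more cells of a type and more RNA in each cell cannot be told apart. By limma 0 of 4 leukocyte markers passed (2 at an unadjusted p under 0.05), and their log2 differences ran both ways, from -0.58 for *Cd74* to 0.49 for *Cd68*. Of 3 endothelial markers 0 passed by limma (0 unadjusted). Of the blood markers 0 of 2 passed by limma (2 at an unadjusted p under 0.05), with log2 differences of 0.46 for *Hbb* and 0.54 for *Alas2*, and their summed signal was 18392 to 29666 in Ept9, 15628 to 17569 in Ept1, 18379 to 19690 in Ept2 and 13217 to 14370 in Ept6. Of the folliculostellate markers 0 of 2 passed by limma (1 at an unadjusted p under 0.05), with -0.56 for *Aldh1a1* and -0.12 for *S100b*. The part of these cells in the *Serpinf1* signal was not tested.

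*Fn3k* (1383654_a_at) was the second member that was higher in Ept9. The signal was 2971, 2864 and 3069 on the Ept9 arrays. It was 1193, 1117 and 1329 in Ept1, 1399, 957 and 1246 in Ept2, and 995, 1382 and 910 in Ept6. Every Ept9 array was at least 2.05 times as bright as any other array, and the other lines overlapped each other throughout. The mean was 2968 ± 102 in Ept9, against 1213 ± 107 in Ept1, 1201 ± 224 in Ept2 and 1096 ± 252 in Ept6 (SD, n = 3 each), a log2 difference of 1.35 ± 0.14 (SE) and a 2.54-fold ratio. The order of the other lines did not go beyond their spread (limma F test among Ept1, Ept2 and Ept6, adjusted p = 0.863; exact permutation p = 0.693).

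**Figure D1:**
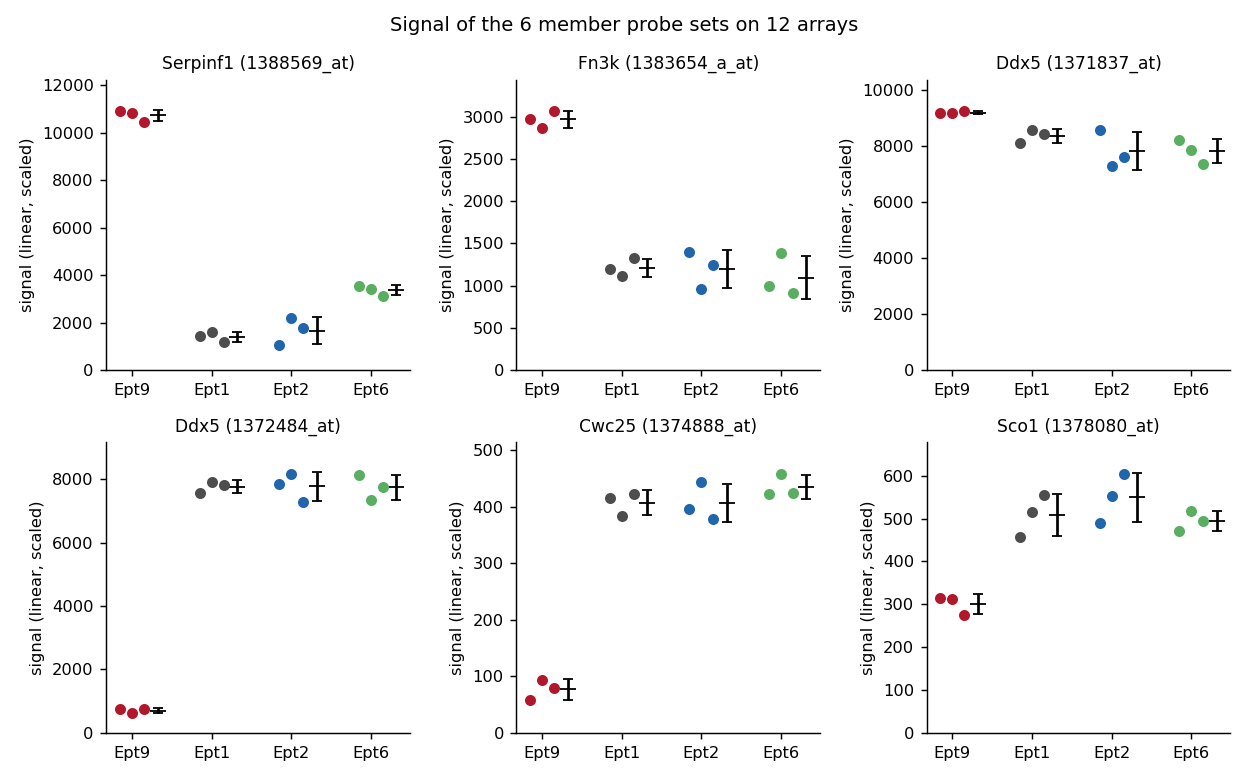
Signal (linear, scaled by the authors) of the 6 member probe sets in the lines Ept9, Ept1, Ept2 and Ept6, each panel with its own vertical scale from 0. Points are single arrays, and the black marks to their right show mean and SD (n = 3). Ept9 stands above the other lines in *Serpinf1*, *Fn3k* and, by 1.15-fold, the first *Ddx5* probe set, and below them in the second *Ddx5* probe set, *Cwc25* and *Sco1*. In *Serpinf1* all 3 Ept6 arrays lie above those of Ept1 and Ept2.

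*Ddx5* gave opposite readings from its 2 probe sets. On 1371837_at the signal was 9153, 9153 and 9243 on the Ept9 arrays. It was 8086, 8567 and 8421 in Ept1, 8565, 7269 and 7581 in Ept2, and 8189, 7862 and 7347 in Ept6. Ept9 was thus slightly higher, with a lowest array 1.07 times as bright as the brightest other and a log2 difference of 0.20 ± 0.07 (SE).

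On 1372484_at, the second probe set of *Ddx5*, the signal was 743, 623 and 753 on the Ept9 arrays. It was 7558, 7927 and 7826 in Ept1, 7838, 8180 and 7298 in Ept2, and 8135, 7352 and 7758 in Ept6. The dimmest of these 9 arrays was 9.69 times as bright as the brightest Ept9 array. The mean was 707 ± 72.4 in Ept9, against 7770 ± 191 in Ept1, 7772 ± 445 in Ept2 and 7748 ± 392 in Ept6 (SD, n = 3 each). The log2 difference was -3.43 ± 0.08 (SE), the largest in size of all 18607 probe sets, and the mean signal of the other lines was 10.99 times that of Ept9.

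The 3 other lines were close to one another on this second probe set, with log2 differences of -0.001 for Ept2 minus Ept1 and -0.005 for Ept6 minus Ept1 (limma F test, adjusted p = 1; exact permutation p = 0.986). On the first probe set they did not differ beyond their spread either (adjusted p = 0.770; exact permutation p = 0.346). The gap between the 2 readings in Ept9 was 3.64 on the log2 scale. Among 2890 genes with more than 1 tested probe set this was the widest gap, ahead of *Mal2* at 2.51, and the median gap was 0.15. The gap rests mainly on the Ept9 difference for which *Ddx5* was chosen, so its rank is a description. The probe sets of *Ddx5* thus did not agree on a change in Ept9, neither in direction nor in size. Whether the second probe set lost its target through another transcript form, or its signal through a COP base beneath the probes, was not tested.

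**Figure D2:**
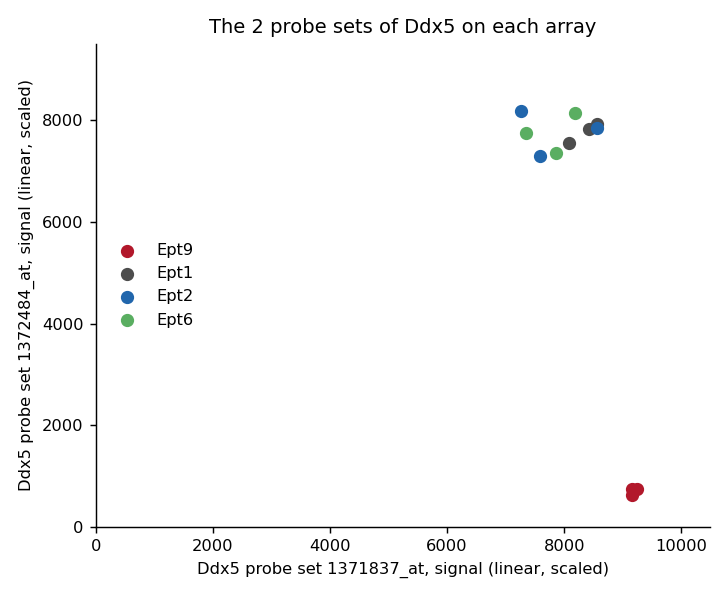
Signal of *Ddx5* on its 2 probe sets (both axes linear, scaled by the authors, from 0), 1 point for each of the 12 arrays, coloured by line. The 3 Ept9 arrays lie at 623 to 753 on the vertical axis and at 9153 to 9243 on the horizontal axis, whereas the 9 arrays of Ept1, Ept2 and Ept6 lie at 7298 to 8180 and 7269 to 8567.

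*Cwc25* (1374888_at) was lower in Ept9. The signal was 57.5, 94.5 and 80.1 on the Ept9 arrays. It was 416, 383 and 423 in Ept1, 397, 444 and 379 in Ept2, and 423, 459 and 424 in Ept6. The dimmest other array was 4.01 times as bright as the brightest Ept9 array. The Ept9 arrays lay around 65.2, the mean signal that a probe set needed to be tested, so the transcript was read near the lower end of the range and the size of the fold is uncertain there. The mean was 77.4 ± 18.7 in Ept9, against 408 ± 21.5 in Ept1, 406 ± 33.3 in Ept2 and 435 ± 20.6 in Ept6 (SD, n = 3 each). The log2 difference was -2.23 ± 0.11 (SE). It was -2.44 with a pseudocount of 1 and -1.77 with a pseudocount of 64. The other lines did not differ beyond their spread (adjusted p = 0.910, limma F test; exact permutation p = 0.364).

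*Sco1* (1378080_at) showed the smallest of the 4 differences read by a single probe set. The signal was 315, 314 and 274 on the Ept9 arrays. It was 458, 515 and 555 in Ept1, 491, 554 and 605 in Ept2, and 470, 519 and 495 in Ept6. Every other array was at least 1.45 times as bright as every Ept9 array. The mean was 301 ± 23.3 in Ept9, against 509 ± 49.0 in Ept1, 550 ± 57.4 in Ept2 and 495 ± 24.1 in Ept6 (SD, n = 3 each), a log2 difference of -0.75 ± 0.09 (SE). Ept2 was the highest and Ept6 the lowest of the other lines, within their spread (limma F test, adjusted p = 0.764; exact permutation p = 0.389).

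In size of the log2 difference the second *Ddx5* probe set ranked 1 of 18607, *Serpinf1* 7, *Cwc25* 8, *Fn3k* 18 and *Sco1* 166, while the first *Ddx5* probe set ranked 4567. All 6 had Ept9 arrays that did not overlap the others, 3 above and 3 below, against 2.69% of all probe sets, but the members were picked for this and nothing is read from the count. The spread between arrays of 1 line differed among the members, from an SD of 0.08 on the log2 scale for the first *Ddx5* probe set to 0.30 for *Serpinf1*.

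The members moved together over the 12 arrays mainly through the line means. With these subtracted the 15 pairs of probe sets had correlations from -0.65 to 0.57. The correlation over the 12 arrays between the second *Ddx5* probe set and *Cwc25* was 0.98 with the line means in and -0.46 without them. For *Cwc25* and *Sco1* it was 0.93 and -0.08, and for *Serpinf1* and *Fn3k* 0.77 and -0.58. The 2 *Ddx5* probe sets, which read the same gene, correlated at -0.76 with the line means in and at 0.11 without them. These are descriptions over 12 arrays of 4 lines, and the values with the line means in rest largely on the distance of Ept9 from the rest.

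The genes whose signals over the 12 arrays were most like a member (Pearson r) were read the same way. For *Serpinf1* they were *Rab1b* (0.96), *Akr1b8* (0.96) and *Slc40a1* (0.94), the last of which encodes the iron exporter ferroportin. For *Fn3k* they were *Rbp4* (0.96), *Nfs1* (0.92) and *Park7* (0.91). For the first probe set of *Ddx5* they were *Smim30l1* (0.93), *Amer2* (0.93) and *Nrcam* (0.90). For *Cwc25* and for *Sco1* the most like probe set was the second one of *Ddx5* (0.98 and 0.94), followed by *C10h17orf58* in both (0.95 and 0.93). With the line means subtracted other genes took these places, led by *Grin1* for *Serpinf1* (0.99), *Hspa4l* for *Fn3k* (0.97), *Plrg1* for *Ddx5* (0.96), *Man2c1* for *Cwc25* (0.92) and *Naxe* for *Sco1* (0.95). Each r was picked as among the highest of all tested probe sets with 1 gene, over only 12 arrays. Whether values of this size arise by chance was not tested, and no shared regulation is read from them.

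Along chromosome 10 the members were far apart. In the gene order of the GRCr8 annotation *Sco1* was number 321 of 897 tested genes, *Serpinf1* 430, *Cwc25* 631, *Ddx5* 758 and *Fn3k* 894. From *Sco1* to *Serpinf1* 108 tested genes intervened, of which 4 passed the limma test in Ept9. The later intervals held 200 genes with 7 passing, 126 with 8 and 135 with 6. Between *Sco1* and *Fn3k*, the members left out, 25 of 569 genes passed (4.39%), and outside them 0 of 323 did by limma (28 at an unadjusted p under 0.05). The members were themselves chosen from genes that differ in Ept9, so their own places and the split at the outermost members are a description. The ends of the COP segment are not read from them.

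**Figure D3:**
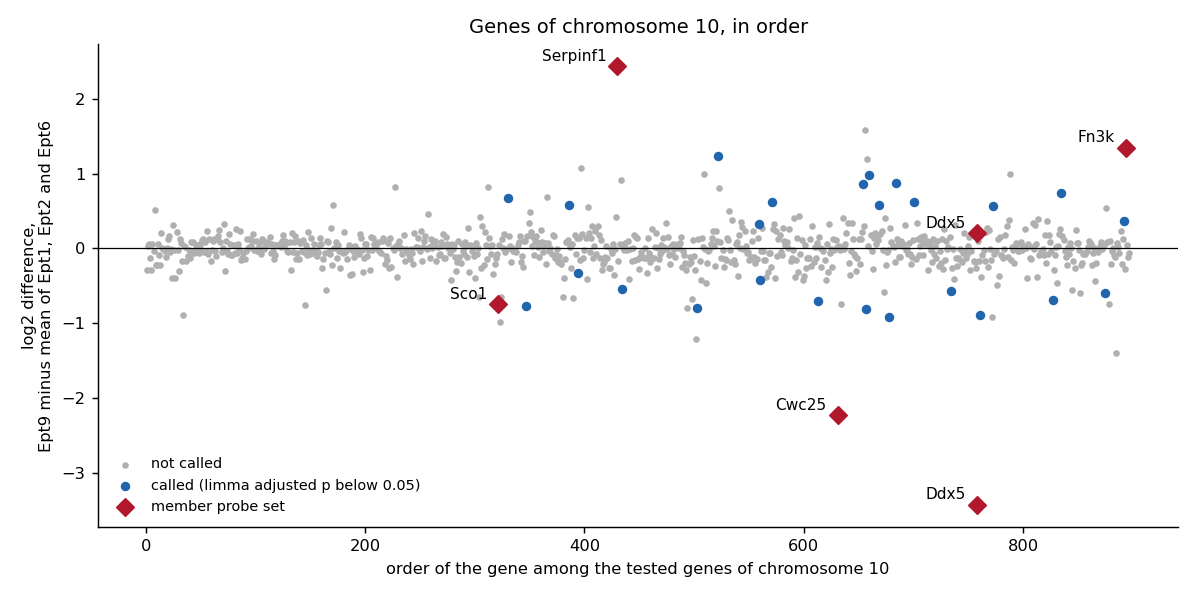
Log2 difference between Ept9 and the mean of Ept1, Ept2 and Ept6 (vertical axis) for the 897 tested genes of chromosome 10 in their order along the chromosome (horizontal axis), 1 probe set for each gene. Blue points passed the limma test, grey points did not, and red diamonds are the 6 member probe sets. The members lie from place 321 to place 894, and the 2 diamonds of *Ddx5* stand at 0.20 and -3.43.

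Of 48 tested neighbours of the members, 5 on each side where the chromosome allowed, 3 passed the limma test in Ept9 (1 higher and 2 lower). In 5 of the 48 the Ept9 arrays did not overlap the other lines. Over all probe sets tested 0.683% passed and 2.69% did not overlap, so both counts were above these shares. Most of these neighbours lie between *Sco1* and *Fn3k*, where 25 of 569 genes passed (4.39%). Nothing is therefore read about closeness to a member. The median log2 difference of the 48 neighbours was -0.03.

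Beside *Sco1* lie *Adprm* and *Pirt* on one side and *Myh1* and *Gas7* on the other, with log2 differences of -0.08, -0.13, 0.04 and -0.99, and none of its 10 neighbours passed the limma test (3 at an unadjusted p under 0.05). *Gas7*, a gene of neurite outgrowth, was dim in Ept9 at 59.3 ± 17.7 (SD, n = 3) and overlapped the other lines, at 53.8 to 210. Beside *Serpinf1* lie *Smyd4* (0.42) and *Rpa1* (-0.01) on one side and *Wdr81* (-0.17) and *Prpf8* (0.05) on the other. *Prpf8*, the core protein of the spliceosome, was 4216 ± 91.3 in Ept9 (SD, n = 3) and lay within the range of the others. *Slc43a2*, an amino acid transporter gene among these 10 neighbours, passed the test with a log2 difference of -0.54 on 1384756_at (limma adjusted p = 0.0446) but was at -0.14 on its other probe set.

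Beside *Cwc25* lie *Pip4k2b* and *Psmb3* on one side and the ribosomal protein gene *Rpl23* and *Lasp1* on the other, with differences of 0.02, 0.12, 0.03 and -0.02. None of the 10 neighbours of *Cwc25* passed the limma test (2 at an unadjusted p under 0.05) or stood apart. Beside *Ddx5* lie *Polg2* (-0.26) and *Pecam1* (-0.18) on one side and *Cep95* (0.09) and *Smurf2* (-0.17) on the other. *C10h17orf58*, 3 tested genes from *Ddx5*, was lower in Ept9 on both of its probe sets. On 1383624_at it was 1708 to 1862 in Ept9 and 2841 to 4187 in the other lines, a log2 difference of -0.90 (limma adjusted p = 0.00631), and on 1385093_at it was 558 to 617 in Ept9 and 811 to 1003 in the others, a difference of -0.60 (limma adjusted p = 0.0119). Unlike *Ddx5*, this neighbour thus gave readings that went the same way.

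Beside *Fn3k* lie *Fn3krp*, its paralog, and *Rab40b* on one side and *Tbcd* and *Znf750* on the other. *Fn3krp*, which encodes a kinase acting on other sugar adducts of proteins, was 1393 to 1444 in Ept9 and 1520 to 2105 in the other lines. It was thus lower than every other array where *Fn3k* was higher, but by a log2 difference of -0.28 that did not pass the test (limma adjusted p = 0.189). *Rab40b* was 2154 to 2188 in Ept9 and 1494 to 1895 in the others, a difference of 0.37 that passed (limma adjusted p = 0.0446). On its other probe set the difference was 0.33, which did not pass (limma adjusted p = 0.309), and the Ept9 arrays overlapped the other lines. *Tbcd* and *Znf750* were at 0.05 and -0.12.

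None of the genes in 5 lists related to the members by function passed the limma test in Ept9. Of 18 serpins and PEDF partners 12 were tested and 0 passed in Ept9 in either direction by limma (2 at an unadjusted p under 0.05), with differences from -0.50 to 0.47 and a median of -0.01, against -0.01 over all probe sets. *Serpinb9* passed the F test among the other lines (limma adjusted p = 0.0393). *Pnpla2* and *Lrp6*, which encode proposed binding partners of PEDF, stood at -0.10 and -0.05. The brightest of the list, *Rpsa* and *Serpini1*, stood at 0.06 and 0.20. *Serpinf2*, the paralog, was dim, at 21.9 ± 11.9 in Ept9 (SD, n = 3) and 8.2 to 65.5 in the other lines, and was not tested. *Vegfa*, *Kdr* and *Flt1*, the vessel growth factor and its receptors, stood at -0.08, 0.05 and -0.20.

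Of 10 genes of glycation defence 9 were tested and 0 passed by limma (4 at an unadjusted p under 0.05), with a median of 0.10. *Park7* and *Akr1b1* each had Ept9 arrays above all others (differences of 0.20 and 0.17), and *Akr1a1* and *Akr1b1* were the brightest. *Glo1*, the glyoxalase that clears methylglyoxal, was 5146 ± 194 in Ept9, 5143 in Ept1, 5173 in Ept2 and 5088 in Ept6.

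Of 18 partners of p68 and other DEAD-box genes 16 were tested and 0 passed by limma (2 at an unadjusted p under 0.05), with a median of 0.02 and a range of -0.17 to 0.38. *Ddx17*, the closest relative of *Ddx5*, was 360 ± 15.6 in Ept9 (SD, n = 3), against 352, 348 and 412 in Ept1, Ept2 and Ept6. The microRNA processing genes *Drosha* and *Dgcr8* stood at -0.02 and 0.08. The brightest, *Eif4a1* and *Ddx1*, stood at 0.23 and 0.004, and *Esr1*, the estrogen receptor alpha gene, was below the filter.

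All of the 19 spliceosome genes on the array were tested and 0 passed by limma (3 at an unadjusted p under 0.05), with a median of -0.05 and a range of -0.29 to 0.19. *Isy1* and *Cwc15*, which act in the same complex as *Cwc25*, stood at -0.06 and 0.04, and *Prpf8* and *Bcas2* were the brightest, at 0.05 and -0.02. *Crnkl1* alone had Ept9 arrays apart from the others (-0.29, limma adjusted p = 0.174).

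Of 20 genes of copper handling and cytochrome c oxidase assembly 17 were tested and 0 passed by limma (1 at an unadjusted p under 0.05), with a median of 0.002 and a range of -0.19 to 0.18. *Cox17*, which passes copper to *Sco1* protein, was 3140 ± 119 in Ept9 (SD, n = 3), against 3079, 2881 and 3042 in Ept1, Ept2 and Ept6. *Cox11*, the other copper carrier, stood at -0.10 near the filter, and *Atox1*, the second brightest of the list after *Cox17*, at -0.01. *Slc31a1* and *Atp7a*, the copper importer and exporter, stood at 0.11 and -0.19.

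**Figure D4:**
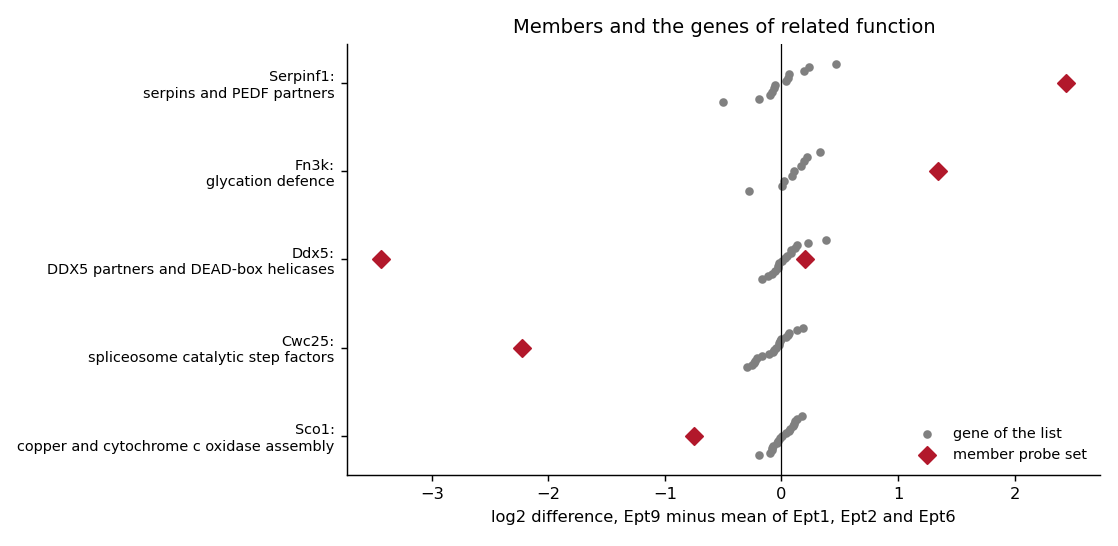
Log2 difference between Ept9 and the mean of Ept1, Ept2 and Ept6 (horizontal axis) for the tested genes of 5 lists of related function (grey) and for the member probe sets they belong to (red diamonds), 1 row for each member. The genes of the lists lie between -0.50 and 0.47, whereas the members other than the first *Ddx5* probe set lie outside that range. The members were chosen for their difference in Ept9, so nothing is read from this contrast.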

How the data were processed

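The 12 arrays hold anterior pituitary RNA of DES-treated male rats of 4 congenic lines, labelled with biotin and hybridised to 1-colour arrays. The deposited values are microarray intensity values (linear signals) of 31099 probe sets, scaled by the authors to an equal trimmed mean (2% off each end). The software that made them is not given in the sources used here. For arrays, their number limits the precision. These deposited values were not scaled again and entered the tests as log2(signal + 16). The 57 control probe sets were left out, and so were probe sets whose mean lay under the 40th percentile, a signal of 65.2.

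Tests used limma 3.58.1 in R 4.3.3 on all 12 arrays, with Benjamini-Hochberg adjustment over 18607 probe sets and a threshold of 0.05. One compared Ept9 with the mean of the other lines, and an F test compared Ept1, Ept2 and Ept6. Exact permutation tests over the 9 arrays of those lines used 280 partitions, are one-sided in the F statistic and were added once results had been seen. The tests were tested on simulated data. Gene names came from the platform annotation (20832 probe sets with 1 gene, 436 with several, 9831 with none) and gene order and promoters from GRCr8, through which 10606 tested genes have a chromosome.

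The members and the lists were chosen with earlier results of these data known. For each gene of a list the brightest probe set was used. The text names all member probe sets, the nearest 2 tested neighbours on either side, others of the nearest 5 that passed, the 3 genes most like each member by correlation, and from each list those that passed and the brightest 2, and part of these are printed. Other named genes of the lists and the second probe sets of neighbours were chosen after their values were seen. As alternatives, the pseudocount was 1 or 64, arrays were quantile normalized or centred on their medians, the filter was dropped or put at the 60th percentile, and limma was run with array weights, with a trend in eBayes or with the replicate number as a block. Each array was also left out in turn.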

Additional observations from a re-analysis of the deposited data

How the results depend on the processing

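The direction of all 6 member differences held in all 21 alternatives. Their sizes moved by less than the spread between arrays, with the exception of *Cwc25*, at -2.44 with a pseudocount of 1 and -1.77 with 64, against -2.23. As single arrays were left out the difference ran from 2.34 to 2.52 for *Serpinf1*, 1.30 to 1.41 for *Fn3k*, 0.19 to 0.23 and -3.48 to -3.35 for the first and second probe set of *Ddx5*, -2.36 to -2.07 for *Cwc25* and -0.78 to -0.69 for *Sco1*.

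The F test of *Serpinf1* among Ept1, Ept2 and Ept6 (adjusted p = 0.0571, limma) passed with a pseudocount of 64 (0.0296), the 60th percentile filter (0.016), the eBayes trend (0.00125) and array weights (0.0245), and ran from 0.0075 without Ept2 replicate 1 to 0.2 without Ept6 replicate 1. The calls over all probe sets moved more. For Ept9, 127 probe sets passed, against 217 under the eBayes trend, 40 under the replicate block and 29 when no filter was set. Leaving out single arrays gave 29 (Ept9 replicate 1 or 3) to 126, and moved the count by over 1.5 times for every array of Ept9 and Ept1, Ept2 replicate 3 and Ept6 replicates 1 and 3. The F test passed 90, against 275 under the eBayes trend, 170 for the stricter filter, 37 under the replicate block and 29 when no filter was set. Leaving out single arrays gave 38 (Ept2 replicate 3) to 77, and moved that count by over 1.5 times for Ept9 replicates 2 and 3, Ept1 replicates 1 and 2, Ept2 replicate 3 and every Ept6 array. With no filter more probe sets are tested, and elsewhere the cause was not tested. Same-numbered arrays of different lines did not deviate together (0 of 18 pairs with a correlation over 0.1), so the replicate number was not taken as a pairing. The precision of each value is limited by 3 arrays a line, and for *Cwc25* in Ept9 by signals near the filter.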

Other observations

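Other genes of chromosome 10 differed in Ept9 beside the members, and these were picked out after their values were seen. *Stat3*, the transcription factor of cytokine signalling, was 1256 ± 109 in Ept9, against 2563 ± 459 in Ept1, 2144 ± 572 in Ept2 and 2578 ± 454 in Ept6 on 1370224_at (SD, n = 3 each), a log2 difference of -0.92 (limma adjusted p = 0.0423). Its 2 probe sets moved apart like those of *Ddx5*, by a gap of 1.10. *Ccl6*, a chemokine gene, was 1257 ± 236 in Ept9, against 574 ± 120 in Ept1, 422 ± 160 in Ept2 and 632 ± 157 in Ept6 (SD, n = 3 each), a difference of 1.23 (limma adjusted p = 0.0471). *Krt19*, a keratin gene of simple epithelia, was 195 ± 33.8 in Ept9 and 64.7 to 137 on the arrays of the other lines, a difference of 0.98 (limma adjusted p = 0.0438). Each adjusted p lies close to the threshold, and *Stat3* alone among these 3 genes has a further probe set.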
